A study of Homo sapiens with 4 samples.

Results

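The genes described here are 36 integrins and focal adhesion proteins, chosen by gene symbol from the 58735 genes measured, and they comprise 17 integrin subunits and 19 intracellular adhesion proteins. Their messages were measured by RNA sequencing in U251 and U87, established human glioblastoma (GBM) cell lines, each as a Control group without Bru and after brusatol (Bru), a quassinoid extracted from a Chinese medicinal plant, for a treatment of 48 h. There were 4 libraries, 1 for each line and treatment, so differences between conditions have no replicate check and no p-value is given across genes. The labels name no vehicle for the RNA samples, and in other assays of the study the controls were given DMSO alone. The paper gives the Bru dose of the RNA samples only as an inhibitory concentration, without a value. Whether both lines had the same dose is therefore not known. No genotype, transgene or further agent is given for the cells, and a single library of a line grown in culture stands for each condition. Levels are in FPKM, which is fragments scaled to gene length and library size, so they can be compared between genes within a library, but only roughly. The length of each member is that of all its annotated exons together, not of the transcripts present in these cells. A ratio is the log2 of Bru to Control on FPKM + 0.1, and its 95% interval is an exact Clopper-Pearson interval on the recovered reads, without the added 0.1, that covers counting error only. Genes whose FPKM averaged 1 or more across the 4 libraries were tested against a 2-fold limit, which left 12949 genes and 29 of the 36 members, 12 of them integrin subunits and 17 intracellular proteins. Recovered reads ran from 17083896 to 21453561 per library, and all genes tested had a median log2 ratio of -0.03 (U251) and -0.04 (U87).

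The glioma markers were checked in each line. Vimentin (VIM) had between 606 and 701 FPKM and CD44 between 94.5 and 125 FPKM in the 4 libraries, whereas SOX2 had 6790 and 4248 reads in U251 Control and Bru against 0 and 2 reads in U87 Control and Bru. Nestin (NES), a neural progenitor marker, had 125 and 50.6 FPKM in U251 and 1.46 and 0.569 FPKM in U87, and GFAP, the astrocyte filament protein, 2.42 FPKM at most. S100B had 9 reads in U251 Control and 0 in the other libraries, and OLIG2 had 2 and 4 reads in U251 and 38 and 61 in U87, the last equal to 1.05 FPKM. In bulk RNA, fewer cells of a type and less RNA per cell cannot be told apart.

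Integrins are receptors that span the plasma membrane as pairs of an alpha and a beta subunit and attach cells to proteins of the extracellular matrix. The alpha subunit largely sets which ligand is held, and the short tail of most beta subunits recruits talin and kindlin, which join the receptor to vinculin, paxillin and the actin filaments in focal adhesions. In glioblastoma these receptors carry the attachment and traction that invading cells need, and focal adhesion kinase and SRC signal from the same sites.

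In the Control groups, ITGA3 and ITGB1 were the most abundant alpha and beta subunits, and the lines differed in which other beta subunits accompanied ITGB1. ITGA3, the alpha subunit of a laminin receptor, had 178 and 107 FPKM in U251 (Control and Bru) and 264 and 183 FPKM in U87, which made up between 56.9% and 59.3% of the summed alpha FPKM in every library. ITGB1, the partner shared by most alpha subunits, had 160 and 61.1 FPKM in U251 (Control and Bru) and 127 and 85.9 FPKM in U87. It held 51.8% of the summed beta FPKM in U251 Control and 72.1% in U87 Control. Most of the remainder in U251 Control was ITGB4, the long-tailed partner of alpha 6 in laminin adhesion, with 31.8% of the beta FPKM. In U87 Control it was ITGB5, a partner of alpha V, with 22.5%, while ITGB4 held 0.15%. ITGB8, another alpha V partner, held 9.14% in U251 Control and 0.31% in U87 Control, and as a share of reads, not per length, 19.5% and 0.77%. Among the alpha subunits, ITGAV held 16.1% in U251 Control and 5.62% in U87 Control, and ITGA5, the fibronectin receptor subunit, held 5.10% and 22.1%.

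**Figure D1:**
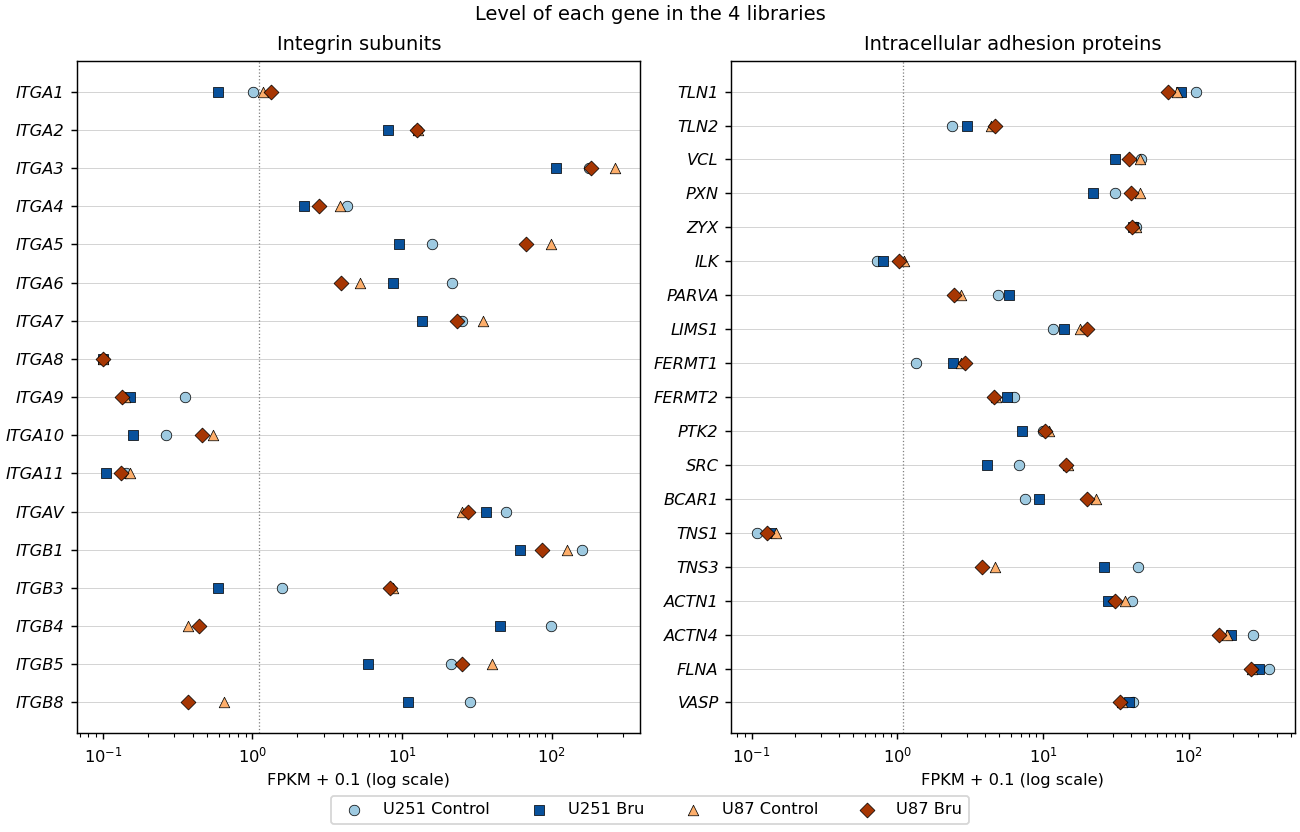
Level of each of the 36 genes as FPKM + 0.1 on a log axis, one row per gene, integrin subunits apart from intracellular proteins, with one point per library and a dotted line at an FPKM of 1. ITGB4 and ITGB8 lie far apart between the lines, at 98.2 and 28.3 FPKM in U251 Control against 0.270 and 0.544 in U87 Control.

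Between the Control groups of the lines, 9 of the 29 members tested differed past 2-fold, 4 lower and 5 higher in U87. Of all genes tested, 30.4% differed past 2-fold, 16.0% lower and 14.5% higher in U87, so the members' count of 9 of 29 lay near that background. The widest gap was that of ITGB4, with 13930 reads in U251 Control and 33 in U87 Control, a log2 ratio of U87 to U251 of -8.05. ITGB8 followed at -5.46 and TNS3, a tensin that links beta tails to actin, at -3.25, with 44.7 FPKM in U251 Control and 4.60 in U87 Control. ITGA6, the alpha partner of ITGB4, was at -2.03. Higher in U87 were ITGA5 with a log2 ratio of 2.64, ITGB3 with 2.48, the adaptor BCAR1 (p130Cas) with 1.62, the tyrosine kinase SRC with 1.14 and FERMT1 (kindlin-1) with 1.03. With a pseudocount of 1 the FERMT1 ratio was 0.70 and no longer past 2-fold. At 1.5-fold the count was 15 of 29, 7 lower and 8 higher, beside 51.9% of all genes, 26.8% lower and 25.0% higher. The other 20 members differed by less than 2-fold, among them VCL, ZYX and ITGA2, whose counting intervals for U87 against U251 included 0.

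**Figure D2:**
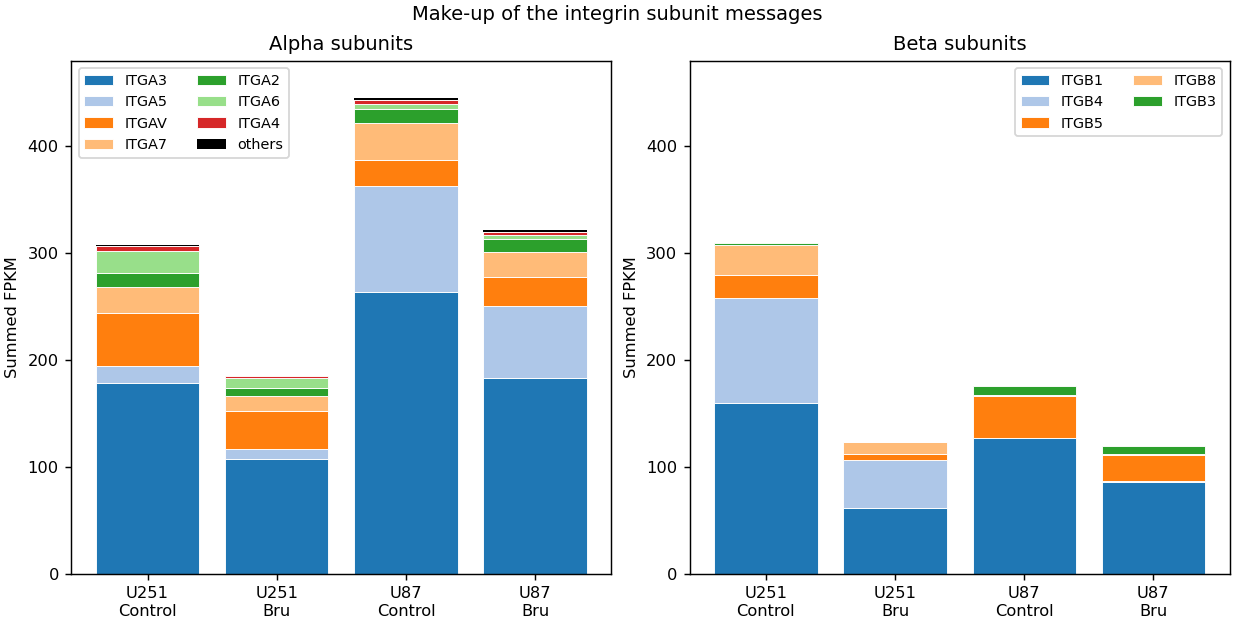
Summed FPKM of the alpha subunits and of the beta subunits in each library, stacked by subunit with the height in FPKM starting at 0. ITGA3 is the tallest alpha band in all 4 libraries, and the beta column of U251 shortens from 309 FPKM in Control to 123 in Bru.

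The beta subunits had the lowest Bru/Control ratios of all the roles in U251. All 5 were lower in Bru past 2-fold, with ITGA6 as the only other member past it, so that 6 of the 29 members tested were called, all lower. Of these, ITGB3 passed the filter through U87 only. Its U251 call was lost with a pseudocount of 1, which left 5 members called. Of all genes tested, 8.80% passed 2-fold in U251, 5.44% lower and 3.36% higher. In U87, 0 of the 29 members passed 2-fold in either direction, where 3.34% of all genes passed it, 1.41% lower and 1.92% higher. No test stands behind these calls, since each condition has 1 library, and the calls depend on the limit. At 1.5-fold, 15 members were called in U251, 14 lower and 1 higher, beside 26.8% of all genes, 15.6% lower and 11.3% higher. In U87, 2 were called at 1.5-fold, ITGB5 and ITGB8, both lower, beside 9.06% of all genes, 4.49% lower and 4.56% higher. ITGB8 passed the filter through U251 only, and its U87 call was lost with a pseudocount of 1. At any size 24 of the 29 were lower in Bru in each line, beside 52.1% of all genes in U251 and 56.7% in U87, although under other scalings the ratios of ZYX and VASP in U251 and of ITGA2, FLNA and FERMT2 in U87 turned positive.

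ITGB5 (ENSG00000082781, GRCh38 chr3:124761948-124901418, minus strand) had 21.2 and 5.77 FPKM in U251 (Control and Bru) and 39.5 and 25.1 FPKM in U87. It was lower in Bru in both lines and had the lowest ratio of all members in U251. The log2 ratio was -1.86 in U251, with an interval of -2.00 to -1.75, and 1.04% of all genes tested had a lower one. In U87 the log2 ratio of ITGB5 was -0.65, with an interval of -0.72 to -0.59. The ITGB5 product pairs with alpha V and binds vitronectin.

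ITGB1 (ENSG00000150093, chr10:32900319-33005792, minus strand) reached 0.383 times its Control level in U251 and 0.678 times in U87. Its levels, given above, put the U251 Bru library lowest and U251 Control highest. The log2 ratio was -1.39 in U251, with an interval of -1.43 to -1.35, and -0.56 in U87, with an interval of -0.60 to -0.52. Of the 50-base stretches of its exons, 8.86% also occur in AC022149.1, a gene with 978, 344, 627 and 466 reads in U251 Control, U251 Bru, U87 Control and U87 Bru. With the reads of both genes summed, the log2 ratios were -1.39 and -0.55.

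ITGB8 (ENSG00000105855, chr7:20330702-20415754, plus strand), whose product with alpha V binds latent TGF-beta, had 28.3 and 10.8 FPKM in U251 (Control and Bru) and 0.544 and 0.269 FPKM in U87. Each Bru library was below its own Control, and both U87 libraries were far below both U251 libraries. The log2 ratio was -1.38 in U251, with an interval of -1.45 to -1.33. In U87 it was -0.80, the lowest of all members tested there, but it rested on 149 and 71 reads and its interval ran from -1.44 to -0.60. ITGB8 passed the filter through U251 only. With a pseudocount of 1 its U87 ratio was -0.28, no longer past 1.5-fold, and that of ITGB5 was lower at -0.63.

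ITGB4 (ENSG00000132470, chr17:75721328-75757818, plus strand) had 98.2 and 45.1 FPKM in U251 (Control and Bru) and 0.270 and 0.340 FPKM in U87. The gene was abundant in U251 alone, and Bru was lower there. The log2 ratio was -1.12 in U251, with an interval of -1.17 to -1.08. In U87, 33 and 40 reads gave 0.25 with an interval from -0.37 to 1.04, so no difference was detectable at this depth.

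ITGB3 (ENSG00000259207, chr17:47253846-47311816, plus strand), which pairs with alpha V, had 1.46 and 0.491 FPKM in U251 (Control and Bru) and 8.64 and 8.24 FPKM in U87. The U87 libraries were both higher than the U251 libraries and lay close to each other. In U251 the log2 ratio was -1.40 on 135 and 40 reads, with an interval of -2.12 to -1.06, and in U87 it was -0.07, with an interval of -0.23 to 0.09. ITGB3 passed the filter through U87 only. With a pseudocount of 1 in place of 0.1 its ratio in U251 was -0.73 and no longer passed 2-fold. The exons of ITGB3 overlap those of AC068234.1 on the same strand over 51.6% of their bases, and that gene was listed at 0 reads in all 4 libraries. How reads in the shared bases were assigned is not given in the sources used here, so the level of ITGB3 may be understated.

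The summed beta FPKM was 309 and 123 in U251 (Control and Bru) and 176 and 119.9 in U87, which is 0.399 times Control in U251 and 0.682 times in U87. The summed alpha FPKM was 308, 185, 445 and 322 in that order, which is 0.602 and 0.723 times Control. The beta sum relative to the alpha sum therefore went from 1.0 in U251 Control to 0.665 in U251 Bru, and from 0.395 in U87 Control to 0.373 in U87 Bru. Within the beta subunits the order of levels in U251 stayed ITGB1, ITGB4, ITGB8, ITGB5 and ITGB3 in Control and Bru. The share of ITGB4 was 31.8% in U251 Control and 36.5% in U251 Bru, and that of ITGB5 was 6.85% and 4.68%. In U87 the ITGB5 share was 22.5% in Control and 21.0% in Bru, and the ITGB3 share was 4.92% and 6.87%.

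Promoters are shown for ITGB1, the most abundant beta subunit, for ITGB5, the member with the lowest ratio in U251, and for FLNA, the intracellular member with the highest level. Each is the 250 bases before the RefSeq start of the gene, read 5′ to 3′ on the strand of the gene in GRCh38.p14. The ITGB1 window is chr10:32958231-32958480 on the minus strand, inside the span of the gene in the files, which has starts further upstream. The ITGB5 window is chr3:124901419-124901668 and the FLNA window chrX:154374635-154374884, both on the minus strand. Capitals mark a match to a motif searched on both strands, GGAATG, the hexamer bound by TEAD factors, in ITGB1, and the CArG box, bound by SRF, in FLNA.
ITGB1: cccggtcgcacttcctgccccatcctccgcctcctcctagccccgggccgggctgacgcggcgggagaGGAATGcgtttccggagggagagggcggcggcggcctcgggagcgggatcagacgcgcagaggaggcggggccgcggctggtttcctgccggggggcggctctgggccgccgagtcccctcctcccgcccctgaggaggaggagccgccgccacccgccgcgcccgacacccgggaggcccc
ITGB5: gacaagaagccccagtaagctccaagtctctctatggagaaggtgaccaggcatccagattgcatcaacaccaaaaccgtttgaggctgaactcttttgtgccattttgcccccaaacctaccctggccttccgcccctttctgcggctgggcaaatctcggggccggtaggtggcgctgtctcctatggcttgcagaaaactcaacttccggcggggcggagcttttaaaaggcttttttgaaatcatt
FLNA: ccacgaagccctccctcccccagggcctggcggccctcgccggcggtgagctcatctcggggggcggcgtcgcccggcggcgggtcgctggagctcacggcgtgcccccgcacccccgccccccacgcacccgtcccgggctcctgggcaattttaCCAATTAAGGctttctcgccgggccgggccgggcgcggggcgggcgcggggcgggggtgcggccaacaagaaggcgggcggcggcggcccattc
The hexamer began 182 bases before the ITGB1 start and the CArG box 94 bases before the FLNA start, and the ITGB5 window held neither set of letters. Of the 27 members with a RefSeq promoter, 4 held GGAATG or its reverse complement (14.8%, ITGA5, ITGA10, ITGB1 and VCL), against 11.9% of 27305 promoters of all genes. The CArG box was found in 1 of the 27 (3.70%, FLNA) against 1.14% of all promoters. The motifs do not overlap each other in these windows, and a match is a description of letters only.

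All 7 alpha subunits tested were lower in Bru in U251, with counting intervals below 0. Only ITGA6 passed 2-fold. Over these alpha subunits the median was -0.74 (U251) and -0.45 (U87) on the log2 scale, beside -1.39 and -0.56 for the 5 beta subunits and -0.03 and -0.04 for all genes tested. The beta medians took in ITGB4 and ITGB8, which passed the filter through U251 only, and ITGB3, which passed it through U87 only.

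The laminin-binding subunits ITGA3, ITGA6 and ITGA7 were lower in Bru in both lines. ITGA6 (ENSG00000091409, chr2:172427354-172506282, plus strand) had 21.4 and 8.64 FPKM in U251 (Control and Bru) and 5.17 and 3.83 FPKM in U87. Its log2 ratio was -1.30 in U251, with an interval of -1.41 to -1.20, and -0.42 in U87, with an interval of -0.61 to -0.25. ITGA6 was thus highest in U251 Control, and its U251 Bru level still exceeded both U87 libraries. For ITGA3 the log2 ratio was -0.74 (-0.76 to -0.71) for U251 and -0.53 (-0.55 to -0.51) for U87. ITGA7, known from muscle laminin adhesion, had 24.9 and 13.5 FPKM in U251 (Control and Bru) and 34.6 and 23.1 FPKM in U87. Its ratios were -0.87 (-0.97 to -0.79) in U251 and -0.58 (-0.65 to -0.51) in U87, so each Bru library was below its own Control. Summed over the 3 laminin-binding subunits, FPKM in Bru was 0.575 times Control in U251 and 0.691 times in U87.

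The subunits that bind the RGD sequence of fibronectin and vitronectin went separate ways in U87. ITGA5 had 15.7 and 9.38 FPKM in U251 (Control and Bru) and 98.5 and 67.3 FPKM in U87. It was several times higher in U87 and lower in Bru in both lines, with log2 ratios of -0.74 (-0.84 to -0.65) for U251 and -0.55 (-0.59 to -0.51) for U87. ITGAV, the alpha partner of ITGB3, ITGB5 and ITGB8, had 49.6 and 36.3 FPKM in U251 (Control and Bru) and 25.0 and 27.6 FPKM in U87. Its log2 ratio was -0.45 (-0.50 to -0.40) for U251 and 0.14 (0.07 to 0.20) for U87, which made it the alpha subunit least lowered in U251 and the one integrin with an interval above 0 in U87. Its share of the alpha FPKM was 16.1% in U251 Control and 19.6% in U251 Bru, and 5.62% in U87 Control and 8.57% in U87 Bru.

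ITGA2, a collagen receptor subunit, had 12.5 and 7.90 FPKM in U251 (Control and Bru) and 12.6 and 12.5 FPKM in U87. Only the U251 Bru library stood apart, with a log2 ratio of -0.65 (-0.77 to -0.56) in U251 against -0.01 (-0.10 to 0.09) in U87. ITGA4, which binds VCAM1 and fibronectin, had 4.19 and 2.12 FPKM in U251 (Control and Bru) and 3.72 and 2.69 FPKM in U87. Its ratio in U251, -0.95 with an interval of -1.18 to -0.79, was the closest to the 2-fold limit from inside, and in U87 it was -0.45 (-0.66 to -0.27).

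**Figure D3:**
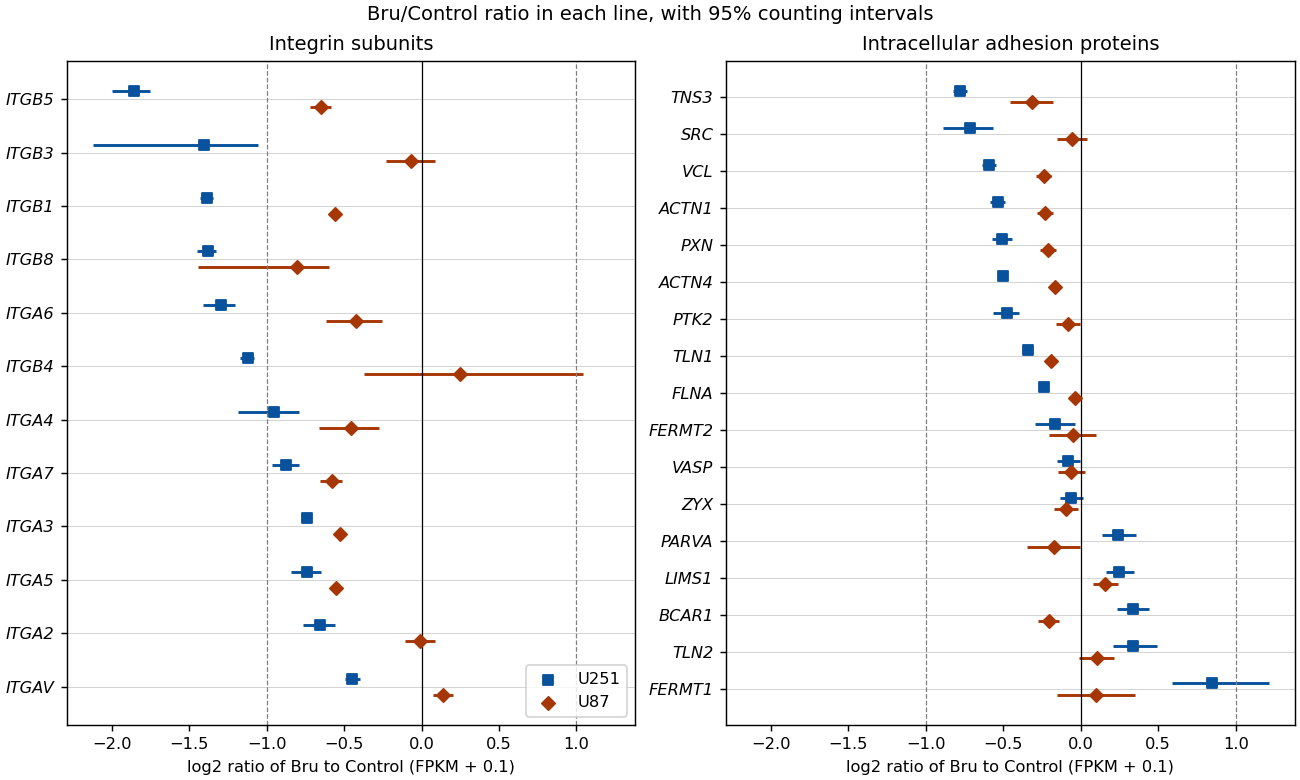
Bru/Control ratio (log2, FPKM + 0.1) of each member tested, in U251 and U87, with 95% counting intervals as bars and dashed lines at the 2-fold limits. All 12 integrin points of U251 lie left of 0 and 6 of them lie left of the lower dashed line, while no U87 point passes either dashed line.

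The 17 intracellular proteins tested had ratios nearer 0, with 0 past 2-fold in either line, where 8.80% (U251) and 3.34% (U87) of all genes passed it. Over these 17 the median was -0.24 (U251) and -0.09 (U87) on the log2 scale, beside -1.04 and -0.49 for the 12 integrin subunits. The integrin medians took in ITGB3, ITGB4 and ITGB8, each of which passed the filter through a single line. In U251 the counting interval lay below 0 for 11 of the 17, above 0 for 5 and included 0 for 1. In U87 it lay below 0 for 11, above 0 for 1 and included 0 for 5. The share of all genes by interval side was not computed, so these counts have no background. In U87 the upper ends for PTK2, PARVA, ZYX and FLNA were -0.003, -0.007, -0.015 and -0.017. These ends were nearer 0 than the median log2 ratio of all genes tested in U87, -0.04, so these intervals depend on the scaling.

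Talins and kindlins, which bind beta tails, had ratios of both directions in U251. TLN1 (talin 1), which activates integrins and pulls them to actin, had 111 and 88.0 FPKM in U251 (Control and Bru) and 82.5 and 72.1 FPKM in U87, with log2 ratios of -0.34 and -0.19. TLN2 had 2.29, 2.91, 4.29 and 4.61 FPKM in that order, with 0.34 (0.21 to 0.49) in U251 and 0.10 (-0.01 to 0.22) in U87. The abundant talin was thus lower in Bru and the scarce one higher in U251. FERMT1 (kindlin-1), a coactivator of integrins known from epithelia, had 1.24 and 2.31 FPKM in U251 (Control and Bru) and 2.63 and 2.82 FPKM in U87. Its ratio of 0.85 in U251, on 139 and 229 reads and with an interval of 0.59 to 1.21, was the highest of all members, and in U87 it was 0.10 (-0.16 to 0.35). FERMT2 (kindlin-2), at 6.25, 5.56, 4.68 and 4.51 FPKM, had -0.17 and -0.05. VCL (vinculin), which reinforces the talin to actin link under force, had 46.5, 30.9, 45.8 and 38.8 FPKM, with -0.59 (-0.64 to -0.54) in U251 and -0.24 (-0.29 to -0.19) in U87.

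The kinases and scaffolds were lower in U251 except BCAR1. SRC had 6.69 and 4.05 FPKM in U251 (Control and Bru) and 14.8 and 14.3 FPKM in U87, with a log2 ratio of -0.71 (-0.89 to -0.57) for U251 and -0.06 (-0.16 to 0.04) for U87. PTK2, which encodes focal adhesion kinase, had 9.91, 7.08, 10.8 and 10.2 FPKM in that order, with -0.48 in U251 and -0.08 in U87. Both kinases were thus below Control mainly in U251. PXN (paxillin), the scaffold that docks focal adhesion kinase, had 31.2, 21.9, 46.2 and 39.9 FPKM, with -0.51 and -0.21. Its exons overlap genes on the other strand over 12.4% of their bases, those of ACTN4 over 14.2% and those of VCL over 11.1%. BCAR1, a substrate of both kinases, had 7.39, 9.34, 22.9 and 19.8 FPKM, with 0.33 (0.23 to 0.44) in U251 and -0.21 (-0.28 to -0.14) in U87. The exons of BCAR1 overlap AC009078.3 on the same strand over 8.59% of their bases, and 7.91% of its 50-base stretches also occur in other genes.

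FLNA and ACTN4, both actin crosslinkers, had the highest levels of the intracellular members. FLNA (filamin A), which binds beta tails and crosslinks actin, had 354 and 301 FPKM in U251 (Control and Bru) and 271 and 265 FPKM in U87. Its log2 ratio was -0.24 for U251 and -0.04 for U87, and the second turned positive, at most 0.02, when reads were scaled by their total, by the 75th percentile or to a median ratio of 0. ACTN4 (alpha-actinin 4) had 274, 193, 181 and 161 FPKM, with -0.50 and -0.17. ACTN1 had 40.4, 27.8, 36.5 and 31.1 FPKM, with -0.54 and -0.23. These crosslinkers together had 0.780 times their Control level in U251 and 0.935 times in U87. TNS3 had 44.7, 26.0, 4.60 and 3.69 FPKM, and its log2 ratio of -0.78 (-0.83 to -0.73) in U251 was the lowest of the intracellular proteins there, as was -0.31 (-0.46 to -0.18) in U87.

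Zyxin and VASP, which act on stress fibres and actin assembly at the adhesion, had ratios near 0. ZYX had 43.4 and 41.6 FPKM in U251 (Control and Bru) and 43.3 and 40.6 FPKM in U87, and VASP had 41.3, 39.0, 34.8 and 33.4. Their log2 ratios lay between -0.09 and -0.06 in both lines, and in U251 those of ZYX and VASP turned positive, at 0.03 and 0.01, when reads were scaled by their total or by the 75th percentile. Of the complex of ILK, PINCH and parvin, which ties beta tails to actin, LIMS1 (PINCH-1) had 11.7, 13.9, 17.9 and 20.0 FPKM, with ratios of 0.25 (0.16 to 0.34) in U251 and 0.16 (0.08 to 0.24) in U87. It was the only member with intervals above 0 in both lines. Of its 50-base stretches 21.1% also occur in LIMS3, LIMS4 or their readthrough, and with the reads of LIMS3 and LIMS4 added the ratios were 0.22 and 0.16. PARVA had 4.81, 5.69, 2.64 and 2.34 FPKM, with 0.24 (0.13 to 0.36) in U251 and -0.17 (-0.35 to -0.01) in U87.

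Of the 7 members below the filter, 6 had under 100 reads in every library. ITGA1, a collagen receptor subunit with a gene length of 18566 bases, was just under it at a higher count, with 351, 169, 362 and 399 reads in U251 Control, U251 Bru, U87 Control and U87 Bru. ILK, the pseudokinase of the complex above, had 46, 45, 64 and 56 reads, but 78.5% of its exon bases overlap genes on the other strand, among them TAF10 with 357 to 621 reads, and the strand setting of the counting is not given in the sources used here. ITGA9 had 44, 8, 6 and 5 reads, ITGA10 22, 7, 51 and 40, ITGA11 10, 1, 10 and 6, and TNS1 3, 11, 14 and 8. ITGA8 had 0 reads in every library, which with a floor of 3 reads allows an FPKM of up to 0.0190 to 0.0229.

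Placed side by side, the ratio was lower in U251 than in U87 for 23 of the 29 members tested, for 12 of 12 integrin subunits and 11 of 17 intracellular proteins, beside 49.1% of all genes tested. The 12 integrin subunits took in ITGB4 and ITGB8, which passed the filter through U251 only, and ITGB3, which passed it through U87 only. The dose may have differed between the lines, so line and dose cannot be told apart here. The difference passed 2-fold for 3 members, all lower in U251, beside 8.49% of all genes, 5.11% lower and 3.37% higher. At 1.5-fold it was 9 members, 8 lower and 1 higher, beside 23.2% of all genes, 12.8% lower and 10.5% higher. The 3 past 2-fold were ITGB4 with a difference of log2 ratios of -1.37, ITGB3 with -1.34 and ITGB5 with -1.20. With a pseudocount of 1 the count was still 3, but ITGB3 fell inside the limit and ITGB8 passed it. The ITGB3 log2 ratio was then -0.73 (U251) against -0.06 (U87), and that of ITGB8 was -1.31 against -0.28. ITGB4 passed the filter through U251 only, and its U87 ratio rested on 33 and 40 reads at under 1 FPKM. The counting interval of the difference, on reads without the pseudocount, ran from -2.12 to -0.79 for ITGB4, from -2.04 to -0.98 for ITGB3 and from -1.36 to -1.08 for ITGB5. ITGA6 at -0.87 and ITGB1 at -0.83 came next, with intervals of -1.08 to -0.67 and -0.88 to -0.77. For ITGB8 the interval of the difference, -0.78 to 0.04, included 0. On the other side FERMT1 had the highest difference, 0.75, and BCAR1 had 0.54. Of the 29 members, 22 were lower in Bru in both lines at any size, beside 37.5% of all genes, and 16 of them had counting intervals below 0 in both. For the intervals no such share of all genes was computed.

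**Figure D4:**
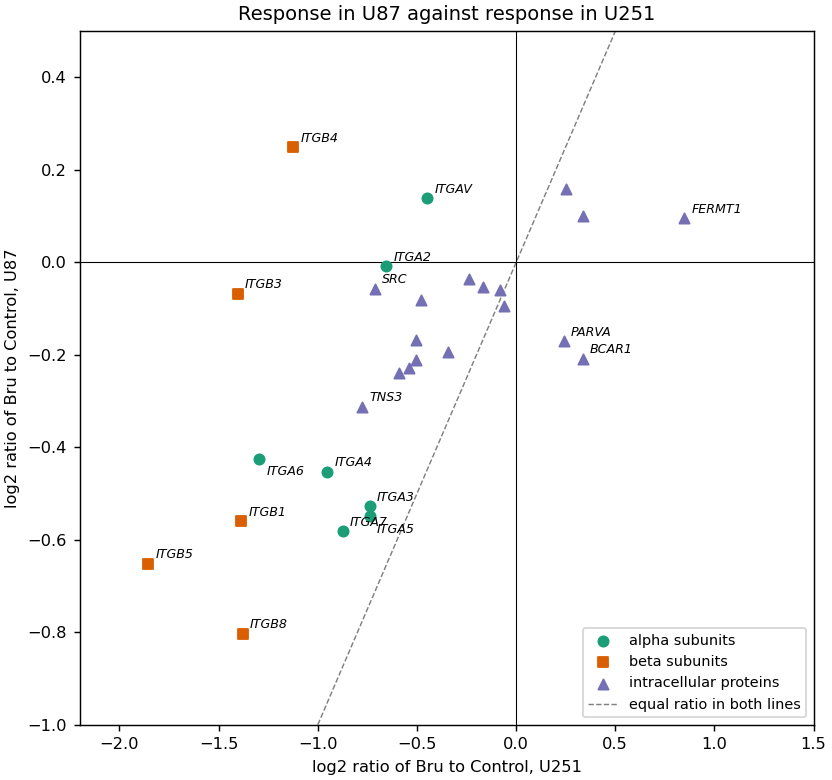
Log2 ratio of Bru to Control in U87 on the vertical axis against U251 on the horizontal axis, one point per member tested, integrin subunits marked apart from intracellular proteins, with a dashed line where the ratios are equal. All 12 integrin subunits lie above the dashed line, which means a lower ratio in U251, and ITGB5 lies farthest left at -1.86.

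Other genes of the pathway were read from lists drawn up for these results. Of 46 tested genes for further focal adhesion and integrin signalling proteins, 31 were lower and 15 higher in U251 and 38 lower and 8 higher in U87, with a median log2 ratio of -0.17 in both lines. Of all genes, 52.1% were lower in U251 and 56.7% in U87. The U251 counts took in PARVB, FLNC, FERMT3 and PDLIM1, which had 18 reads at most there and passed the filter through U87 only. NEDD9, counted as higher in U87, had 0 and 1 reads there and passed the filter through U251 only. In U251 the actin regulator EVL (-1.03) was lower and the paxillin relative LPXN (1.17) higher past 2-fold, and in U87 0 genes passed it, beside 8.80% and 3.34% of all genes, so that these counts were at or below the background. The largest ratios in U87 were those of CD9 (-0.73), a tetraspanin that associates with integrins, and FBLIM1 (-0.57), a filamin-binding protein of adhesions.

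Of the 28 tested integrin ligands, 24 were lower and 4 higher in each line, and their median log2 ratio was -0.74 (U251) and -0.25 (U87). Past 2-fold, 10 of 28 were lower in U251, where 5.44% of all genes were, and 3 lower and 1 higher in U87, where 1.41% and 1.92% of all genes were. The 1 higher was THBS1, which had 0.169 and 0.489 FPKM in U87 (Control and Bru) and passed the filter through U251 only. COL1A2, a chain of type I collagen, had 133 and 42.4 FPKM in U251 (Control and Bru) and 23.5 and 5.64 FPKM in U87, with ratios of -1.64 and -2.04. FN1 (fibronectin), the ligand of ITGA5 with ITGB1, had 15.7, 5.66, 51.3 and 17.1 FPKM, with -1.45 and -1.58. MFGE8, an RGD ligand of alpha V integrins, was at -1.62 in U251 and -0.61 in U87. COL1A2 and FN1 were thus lower past 2-fold in both lines.

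Of the 9 other integrin subunits in the files, 3 passed the filter. ITGAE was at 0.15 in U251 and -0.10 in U87. ITGAX and ITGAD, known from leukocytes, had 1018 and 235 reads in U87 Control and 5 reads each in U251 Control. They passed the filter through U87 only, where their ratios were -0.23 and -0.45, and their reads in U251 were too few for a ratio. Of the 8 leukocyte markers, ITGAX was the only one at an FPKM of 1 or more in any library. Their summed level was 0.597 and 1.05 FPKM in U251 Control and Bru and 8.64 and 7.82 in U87 Control and Bru, PTPRC had 3 reads at most, and AIF1 and CD3E were at 0. Of the 4 endothelial and the 4 epithelial markers, summed levels were 0.891 to 4.42 and 2.22 to 16.4 FPKM. CDH1 was at 0 in all libraries, but other markers of these lists were present. In U251 Control and Bru, KRT18 had 9.67 and 14.3 FPKM, KRT8 2.80 and 2.06, and the endothelial marker KDR 4.08 and 3.49. In U87 Control and Bru, KRT8 had 1.66 and 1.54 FPKM.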

How the data were processed

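RNA of U251 and U87 cells, Control and Bru, was extracted with Trizol, and the NEB Next Ultra kit was used for paired-end sequencing. The authors deposited FPKM per gene with gene lengths for each library. The submitters' processing notes list HISAT2 2.0.5, StringTie 1.3.3b, featureCounts 1.5.0-p3, DESeq2 1.16.1 and build hg18, but all 58735 gene coordinates equal GENCODE release 29 on GRCh38, and GRCh38 was used here. The strand setting and the library size used are not given in the sources used here. FPKM multiplied by length gave whole reads for 100% of values above 0 within 0.05 reads. Depth was 17083896 to 21453561 reads on genes per library. The library sizes inside the FPKM were 17406238 to 20974002, and by these 3 reads, the floor used, equal 0.143 to 0.172 FPKM at a length of 1 kilobase. Intervals rest on the reads of 1 library per condition, so they cover counting error only. Libraries hold no molecular identifiers, so duplicate reads count as separate fragments and the intervals may be too narrow.

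Log2 ratios were taken on FPKM + 0.1 where the mean FPKM reached 1, and a call is a ratio past 2-fold, the fold limit of the study. The study's p-value limit was not applied, for want of replicates. The interval of a difference between lines is a 95% Wald interval on read counts of at least 10. The members and lists were chosen with earlier results of these data known. Described in full are members past 2-fold in a line, else the 6 with the largest ratios there, and of other lists the 2 genes with the largest ratio in each line. A further gene list is not reported here. Alternatives were other pseudocounts, filters, scalings and a 1.5-fold limit. Promoters came from RefSeq (GRCh38.p14). Scripts (Python 3.11.15, pandas 2.3.3, SciPy 1.17.1) were tested on simulated data.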

Additional observations from a re-analysis of the deposited data

Results flagged for a closer look

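ITGAV, PARVA and BCAR1 had Bru/Control ratios of opposite direction in the lines, with both counting intervals clear of 0 at the deposited scaling. For PARVA in U87 the upper end was -0.007, nearer 0 than the median log2 ratio of all genes tested there, -0.04. The log2 ratio was -0.45 for U251 and 0.14 for U87 for ITGAV, 0.24 and -0.17 for PARVA, and 0.33 and -0.21 for BCAR1. With 1 library per condition, the difference between the lines was not tested beyond counting error.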

How the results depend on the processing

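No paired analysis was possible because each condition has 1 library and the labels give no replicate numbers. No call past 2-fold changed direction under the alternatives run. Other scalings changed the sign of ratios near 0, those of ITGA2, FLNA and FERMT2 in U87, ZYX and VASP in U251, and ITGA2 and ZYX between the Control groups. A 1.5-fold limit gave 15 members in U251, 2 in U87, 15 between the Control groups and 9 for the difference, in place of 6, 0, 9 and 3. The integrin median was -0.78 in U251 and -0.35 in U87 with a pseudocount of 1, -0.87 and -0.24 without a filter, and -0.91 for U251 when the mean FPKM had to reach 0.1. The intracellular median in U251, -0.24 as reported, was -0.17 without a filter, -0.20 with a minimum of 0.1, -0.41 with a minimum of 5, -0.21 with the median ratio of all genes at 0 or on TPM, and -0.15 with reads scaled by their total or by the 75th percentile. As shares of reads, not per length, ITGA3 made up 64.2%, 63.6%, 65.6% and 63.0% of the alpha subunits in U251 Control, U251 Bru, U87 Control and U87 Bru, and ITGB1 43.8% and 42.0% of the beta subunits in U251 Control and Bru, and ITGB8 19.5% and 18.7% in U251 and 0.77% and 0.57% in U87. Under the alternatives other than the 1.5-fold limit, 5 to 7 members passed 2-fold in U251, 0 in U87, 7 to 11 between the Control groups, where ITGAV passed at -1.05 on TPM, and 2 to 4 for the difference. Without a second library per condition, the spread between cultures is unknown.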

Other observations

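Adhesion genes with a restricted presence in one line were noticed after the values were seen. FLNC, the muscle filamin, had 11 and 18 reads in U251 Control and Bru against 13089 and 12183 in U87 Control and Bru. PDLIM1, an alpha-actinin adaptor, had 8 and 2 reads against 1497 and 1180, PARVB, the parvin related to PARVA, had 2 and 6 against 524 and 507, and MYL9, a myosin light chain, had 0 and 0 against 863 and 776. In the other direction, NEDD9, the relative of BCAR1, had 1883 and 1211 reads in U251 against 0 and 1 in U87, and MYH10, a nonmuscle myosin heavy chain, had 3937 and 1611 against 89 and 87. Thus U251 held NEDD9 beside 7.39 FPKM of BCAR1, and U87 held 22.9 FPKM of BCAR1 with NEDD9 at or near 0.

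Tetraspanins that associate with laminin-binding integrins, also chosen after the values were seen, were lower in Bru in both lines. CD151 had a log2 ratio of -0.80 for U251 and -0.32 for U87, CD9 had -0.96 and -0.73, and CD81 had -0.92 and -0.48.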
